A study of Mus musculus with 18 samples.

Results

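The 45 genes described here are the Wnt ligands, their Frizzled receptors, the coreceptors Lrp5 and Lrp6, the R-spondins and the secreted antagonists of the Wnt pathway. They are all genes on the array whose printed name was Wnt, Fzd, Rspo, Dkk or Sfrp followed by a digit, together with Lrp5, Lrp6, Wif1 and Frzb, and they make up 45 of 27796 gene names. There were 19 Wnt ligands, 10 Frizzleds, 2 coreceptors, 4 R-spondins and 10 antagonists. Of these, 15 had more than 1 probe, and a gene was represented by its brightest probe over all samples.

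The series set cultures converted from mouse fibroblasts beside cultures of intestinal origin, all of strain C57BL/6, with 3 arrays for each of 6 groups. iISC organoids derive from induced intestinal stem cells and have the budding form. iFIPC organoids derive from induced fetal intestinal progenitor cells, and their cultures mix spherical with budding forms. Crypt organoids are budding organoids from adult intestinal crypts, and FI organoids are a mixture of spherical and budding organoids from fetal intestinal progenitors. iHep cells are hepatocyte-like cells made from embryonic fibroblasts, and MEFs are the embryonic fibroblasts themselves. A note in the labels marks the arrays of MEFs and iHep cells as a re-analysis, and the 3 iHep titles carry different codes that the labels do not explain. The factors used for conversion, the culture media and the ages of the animals are not given in the sources used here, and nothing says whether replicates came from separate animals or cultures, so that p-values measure only the spread between these samples.

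Wnt ligands are secreted proteins that bind a Frizzled receptor together with Lrp5 or Lrp6 on the receiving cell, and the canonical branch of the pathway then stabilises beta-catenin, which acts with TCF and LEF proteins on target genes. R-spondins bind Lgr receptors and keep the ubiquitin ligases Rnf43 and Znrf3 from removing Frizzleds, so that they strengthen a Wnt signal. Sfrp proteins, Frzb and Wif1 bind Wnt ligands outside the cell, whereas Dkk1, Dkk2 and Dkk4 bind Lrp5 and Lrp6. In the mouse small intestine, Paneth cells of the crypt are a known source of Wnt3, and cells of the surrounding mesenchyme are a known source of R-spondins, of other Wnt ligands and of secreted antagonists.

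Promoters are shown for 4 members called in both kinds of induced organoid against MEFs. Wnt3 and Wnt9b were higher there, and Rspo1 and Sfrp2 were lower. The call of Wnt9b rested on few samples, as given below. Wnt3 and Wnt9b are neighbours on chromosome 11. Each sequence gives, 5′ to 3′ on the strand of the gene, 250 bases before a transcript start in lower case and the first 12 bases from that start in capitals, as RefSeq has them on build GRCm38.p6. The regions are chr11:103773925-103774186 on the plus strand for Wnt3, chr11:103749810-103750071 on the minus strand for Wnt9b, chr4:124986180-124986441 on the plus strand for Rspo1 and chr3:83766071-83766332 on the plus strand for Sfrp2.
Wnt3: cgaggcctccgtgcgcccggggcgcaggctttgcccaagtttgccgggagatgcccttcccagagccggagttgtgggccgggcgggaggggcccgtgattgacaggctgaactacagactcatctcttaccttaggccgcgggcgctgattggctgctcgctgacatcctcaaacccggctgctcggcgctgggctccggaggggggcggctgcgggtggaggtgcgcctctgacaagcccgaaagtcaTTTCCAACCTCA
Wnt9b: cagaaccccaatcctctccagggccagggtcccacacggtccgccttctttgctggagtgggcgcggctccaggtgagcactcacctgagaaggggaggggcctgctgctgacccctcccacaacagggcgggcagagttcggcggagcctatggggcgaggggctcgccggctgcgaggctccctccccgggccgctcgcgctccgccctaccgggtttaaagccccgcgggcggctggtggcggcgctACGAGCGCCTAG
Rspo1: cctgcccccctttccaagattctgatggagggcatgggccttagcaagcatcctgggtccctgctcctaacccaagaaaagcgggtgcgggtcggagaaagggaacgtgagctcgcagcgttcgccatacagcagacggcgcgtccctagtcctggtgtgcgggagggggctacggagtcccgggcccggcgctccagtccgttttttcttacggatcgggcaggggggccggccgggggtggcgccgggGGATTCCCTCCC
Sfrp2: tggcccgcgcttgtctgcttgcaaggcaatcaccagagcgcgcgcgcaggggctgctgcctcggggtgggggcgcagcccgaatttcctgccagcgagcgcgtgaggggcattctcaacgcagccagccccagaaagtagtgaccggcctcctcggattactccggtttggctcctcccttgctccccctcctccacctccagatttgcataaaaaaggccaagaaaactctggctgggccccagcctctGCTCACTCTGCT
The tables held 32 promoters of 29 members, each with 250 bases before and 50 after the start, and their median GC content was 67.8%, against 52.7% over all 32851 promoters. The core of the TCF and LEF motif, searched as CTTTGA on both strands, was present in 5 of the 32 (15.6%), against 16% of all promoters, and in none of the 4 shown. A Cdx-type motif, searched as TTTATG on both strands, was present in 2 of the 32 (6.25%), against 11.9% of all promoters. They were promoters of Wnt5b and Sfrp2, and in Sfrp2 the letters CATAAA begin 42 bases before the start. Both searches are descriptions of letters and say nothing of a factor's binding.

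Levels are on the log2 scale, relative to each array's own 75th percentile over gene probes. Tests covered genes flagged by the scanner software as well above background on all arrays of 1 or more of the groups compared. A gene that passed through 1 group alone was likely to be higher in that group, so this filter largely set its direction. A gene is said to be called where limma gave a log2 change of at least 1 and a p under 0.05 after Benjamini-Hochberg adjustment over all genes tested. MEF arrays 2 and 3 differed by less than the noise between spots of 1 array and were counted as 1 sample, so MEFs have n = 2 and every other group n = 3. Values of single samples are given in the order of the replicate numbers, and for MEFs as array 1 followed by the mean of arrays 2 and 3. In whole-culture RNA, fewer cells of a type and less RNA per cell cannot be told apart.

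Between 56.1% and 68.7% of probes were well above background on an array. All 15 fibroblast markers of the list were above background in MEFs and all 9 epithelial markers on every organoid array, while iHep cells had all 7 hepatocyte markers and all 15 fibroblast markers. Fibroblast markers were also above background in organoids, with 9 to 13 of 15 in iFIPC organoids, against 5 to 8 in FI organoids, and with 4 to 7 in iISC organoids, against 4 to 5 in crypt organoids. The MEF and iHep arrays were read with another software version and scanner model than the organoid arrays, and this cannot be told apart from the difference between these cells and organoids. On the scale used here, 7 spike-in controls were 0.53 to 1.21 log2 higher on the MEF and iHep arrays than on the organoid arrays.

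The receptor side of the pathway was measured almost everywhere, while ligands, R-spondins and antagonists differed by group. Of the 10 Frizzleds, 9 were above background on every array, as were both coreceptors, whereas 4 of 19 ligands, none of the 4 R-spondins and none of the 10 antagonists were. The 4 ligands were Wnt5b, Wnt6, Wnt7b and Wnt11. Wnt8a and Wnt8b were above background on no array, and the other 28 members on some. Wnt3 alone among the 45 was above background on all 12 organoid arrays and on none of the 6 MEF and iHep arrays. A further 6 members were above background on all 3 MEF arrays and on no organoid array, namely the R-spondins Rspo1, Rspo2 and Rspo3, the antagonists Sfrp1 and Sfrp4 and the ligand Wnt10b. The plot of all members by array shows both patterns.

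**Figure D1:**
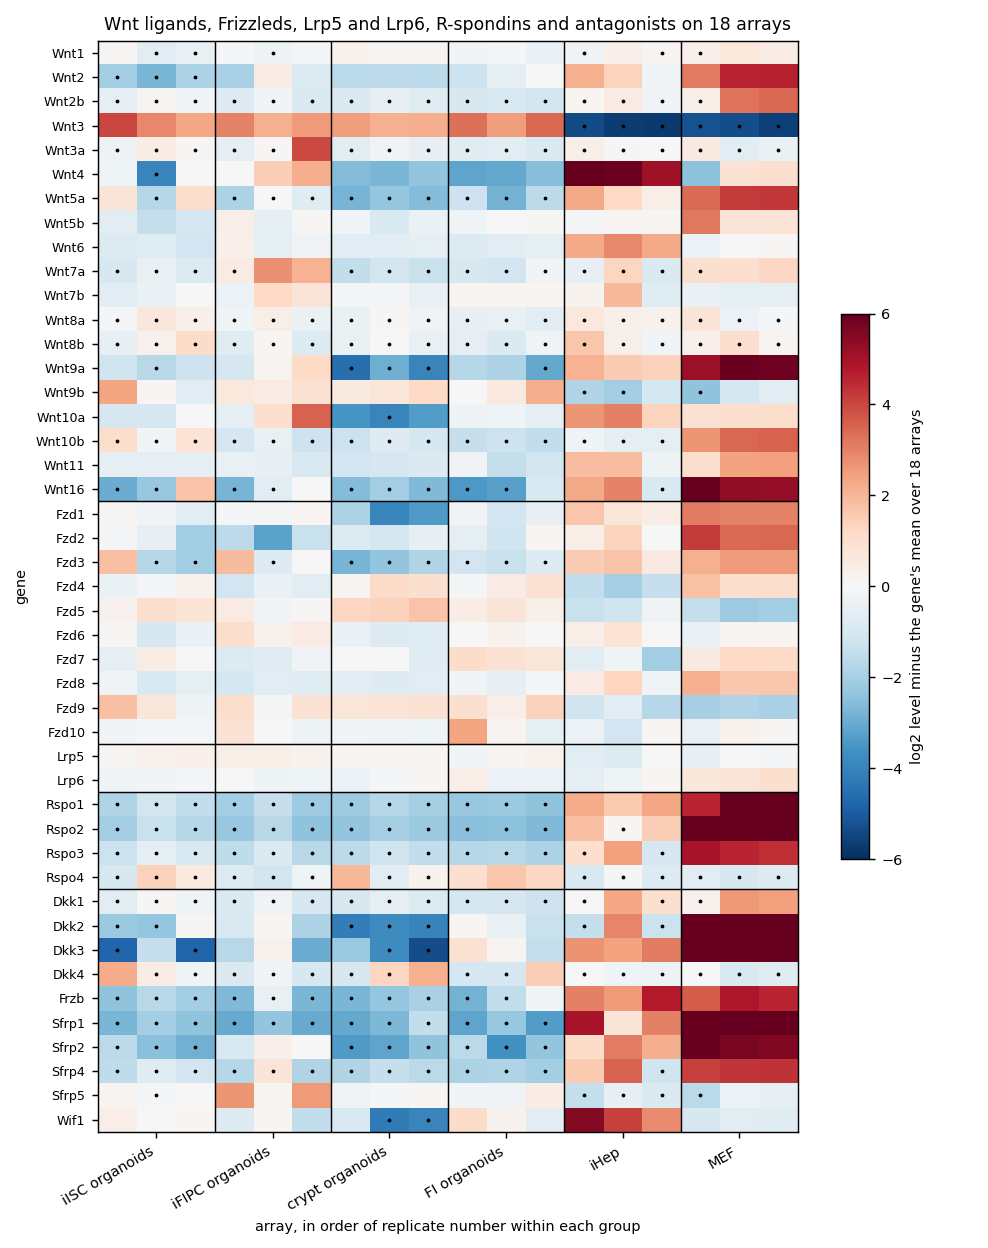
Heat map of the 45 members (rows, grouped by role) on the 18 arrays (columns, 6 groups of 3), coloured by the log2 level minus the gene's own mean over the 18 arrays, with a black dot where the probe was not well above background. Wnt3 is above its mean in all 12 organoid arrays and dotted in all 6 MEF and iHep arrays, while Rspo1, Rspo2, Rspo3 and Sfrp1 are dotted in all 12 organoid arrays and in none of the 3 MEF arrays.

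The question of iHep cells against MEFs is how a conversion of fibroblasts to another lineage altered these genes. Most members that changed were lower in iHep cells, while the ligands Wnt4 and Wnt6 and the Wnt-binding protein Wif1 were higher. Fibroblast markers were lower as well, 12 of 15 tested (median -2.84), and so were 7 of 8 tested markers of pericryptal mesenchyme and smooth muscle, with 1 higher (median -4.48). The summed level of the fibroblast list ranged from 2.85 to 3.98 in iHep cells and from 6.41 to 6.47 in MEFs, and that of the pericryptal list from 1.40 to 2.40 in iHep cells and from 5.11 to 5.54 in MEFs. The part of these cell types in the members' changes was not tested. Of 45 members, 33 were tested and 22 were called, 3 higher and 19 lower, which is 66.7% of those tested, against 26.8% of all genes tested. The median change of the tested members was -1.91, against -0.07 over all genes.

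Wnt4 is a ligand known for its roles in kidney and gonad development. Its levels were 3.80, 3.05 and 2.26 in iHep cells, against -5.32 and -1.91 in MEFs. The groups did not overlap, although the 2 MEF samples lay far apart, and the change was 6.65 ± 1.14 (SE, adjusted p = 0.000467). Wif1, an extracellular Wnt-binding inhibitor, stood at 2.52, 1.12 and -0.16 in iHep cells, against -3.92 and -3.70 in MEFs, a change of 4.97 ± 0.92 (adjusted p = 0.00087). The ligand Wnt6 had -0.85, -0.21 and -0.85 in iHep cells, against -3.46 and -3.09 in MEFs, with no overlap and a change of 2.63 ± 0.25 (adjusted p = 2.81e-06). Its neighbour on chromosome 1, Wnt10a, was not called (1.37 ± 0.85, adjusted p = 0.214).

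Dkk2, which binds Lrp5 and Lrp6, had -6.35, -2.02 and -6.22 in iHep cells, against 2.17 and 1.75 in MEFs, and 1 of the 3 iHep arrays was above background. Dkk2 fell by 6.82 on the log2 scale (SE 1.11, adjusted p = 0.000331). For Rspo2, the R-spondin known from limb and lung development, levels were -4.39, -6.08 and -4.73 in iHep cells, against 3.03 and 0.28 in MEFs, a change of -6.72 ± 0.63 (adjusted p = 3.11e-06). All iHep samples lay below both MEF samples for each gene. Rspo1 (-3.25) and Rspo3 (-3.90) were lower too, so that 3 of the 3 tested R-spondins fell. Rspo2 and Rspo3 passed the filter through MEFs alone, which largely set their direction.

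Of the 7 tested antagonists, 5 fell and 1, Wif1, rose. Dkk2 and Sfrp4 passed the filter through MEFs alone. Besides Dkk2, the 4 that fell were Sfrp1 (-4.96), Sfrp2 (-4.01), Dkk3 (-3.64) and Sfrp4 (-2.89), and Frzb was not called (-0.71, adjusted p = 0.524). Of 11 tested ligands, 6 fell. Their changes were -4.72 for Wnt16, -3.84 for Wnt9a, -2.74 for Wnt2, -2.51 for Wnt5a and -1.91 for Wnt5b, and Wnt10b was at least 2.82-fold lower. Here and below, "at least" marks a gene above background on no array of the lower group, and the bound sets those arrays at no less than the lowest level above background. Wnt10b and Wnt16 also passed the filter through MEFs alone. Of the 10 Frizzleds, 5 fell and none rose, with changes from -3.24 for Fzd2 to -1.34 for Fzd8 among the called, and neither coreceptor was called. Fzd5 was called higher without iHep sample 1 (1.05, adjusted p = 0.0350) or MEF array 1 (1.18, adjusted p = 0.0483).

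Slide A held the 3 iHep arrays and MEF array 1. A fit within it has 1 MEF sample, which is assumed to vary like the iHep samples, so that its p-values leave out the spread of MEFs. In it 10 members passed the threshold. Wnt4 had a change of 8.35 (adjusted p = 0.0103), Rspo2 of -8.10 (adjusted p = 0.0138) and Wnt6 of 2.82 (adjusted p = 0.0269), whereas Dkk2 (-7.04, adjusted p = 0.114) and Wif1 (5.08, adjusted p = 0.0698) did not pass. With slide as a term the changes were those within slide A, since MEF arrays 2 and 3, alone on slide B, drop out. That fit is therefore no second check of the 5 members.

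**Figure D2:**
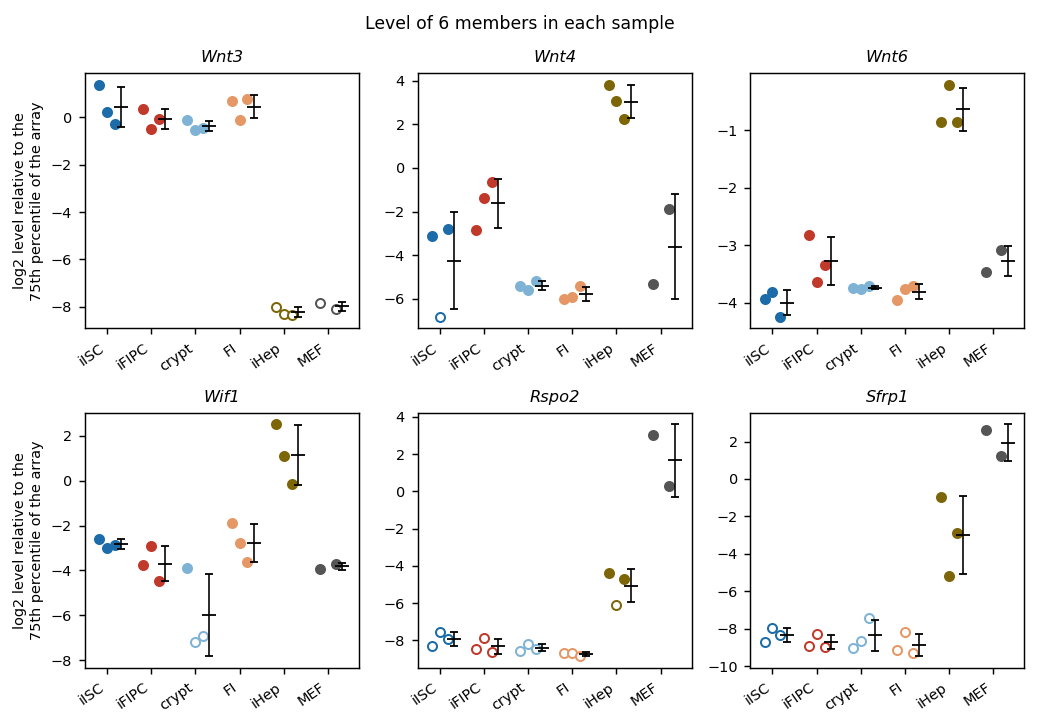
Levels of Wnt3, Wnt4, Wnt6, Wif1, Rspo2 and Sfrp1 (log2 relative to the 75th percentile of the array) in each sample of the 6 groups, with filled points above background, open points not above it, and bars at the mean with the SD (n = 3, MEF n = 2). Wnt3 is high in the 12 organoid samples alone, Wnt4, Wnt6 and Wif1 are highest in iHep cells, and Rspo2 and Sfrp1 are highest in MEFs.

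The comparison of induced organoids with MEFs asks how far the 2 kinds of converted intestinal culture stand from fibroblasts. In both, Wnt3 was the member that rose most, the 3 R-spondins measured in MEFs were at background, and 6 secreted antagonists were lower. In iISC organoids 25 of 35 tested members were called, 4 higher and 21 lower (71.4%, against 47.3% of all genes tested), with a median of -2.50, against -0.01 over all genes. In iFIPC organoids 26 of 36 were called, 5 higher and 21 lower (72.2%, against 42.1% of all genes tested), with a median of -2.24, against -0.02 over all genes. With a signal above background required in both groups, 8 of 17 members were called in iISC organoids, against 5205 of 13891 genes. In iFIPC organoids 14 of 23 were then called, against 4896 of 14632 genes. These 2 comparisons and that of iHep cells share the MEF samples. When arrays were scaled to their median in place of the 75th percentile, the median change of all genes moved to 0.50 for iISC and 0.34 for iFIPC organoids. The members' split was then 4 higher and 20 lower for iISC, and 7 higher and 20 lower for iFIPC organoids.

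Wnt3 was measured by a probe at chr11:103677409-103677468 (mm9). Its levels were 1.38, 0.24 and -0.29 in iISC organoids and 0.35, -0.50 and -0.05 in iFIPC organoids, against -7.85 and -8.11 in MEFs, where it was on no array above background. The rise of Wnt3 was at least 101-fold for iISC (adjusted p = 2.13e-09) and at least 70.7-fold for iFIPC organoids (adjusted p = 4.78e-09). Wnt3 passed the filter through the organoids alone, which largely set its direction. The 3 crypt organoid samples had -0.10, -0.52 and -0.47 and the 3 FI organoid samples 0.68, -0.11 and 0.80, so that every organoid sample lay between -0.52 and 1.38. Wnt3 was also called in both after a normexp correction of raw spot means. All 6 Paneth cell markers on the array were above background on every organoid array, and their summed level ranged from 5.61 to 5.95 in iISC organoids, from 5.40 to 5.85 in iFIPC organoids and from 0.73 to 1.12 in MEFs. Their part in the Wnt3 level was not tested.

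Wnt9b, the neighbour of Wnt3, stood at -2.57, -4.88 and -5.58 in iISC organoids and at -4.31, -4.44 and -4.04 in iFIPC organoids, against -7.35 and -5.79 in MEFs. The rise was 2.22 ± 0.80 in iISC (adjusted p = 0.0248) and 2.30 ± 0.80 in iFIPC organoids (adjusted p = 0.0227). It rested on few samples, since the change was 1.34 (adjusted p = 0.0902) without iISC sample 1, and 1.44 (adjusted p = 0.231) in iISC and 1.52 (adjusted p = 0.217) in iFIPC organoids without MEF array 1. Without iFIPC sample 3 it was 2.19 (adjusted p = 0.0547), and after normexp it was 0.37 in iISC and 0.19 in iFIPC organoids. Wnt9b too passed the filter through the organoids alone, which largely set its direction.

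Of the 13 tested ligands, 7 fell in each comparison. Wnt2, Wnt5a, Wnt5b, Wnt9a, Wnt10b, Wnt11 and Wnt16 were lower in both kinds of organoid, and Wnt5a is a ligand best known for non-canonical signalling. In iISC organoids Wnt2, Wnt5a, Wnt9a, Wnt10b and Wnt16 passed the filter through MEFs alone, so that their direction was largely set by it. In iFIPC organoids this holds for Wnt5a, Wnt10b and Wnt16. Wnt16 was above background on 1 of the 3 arrays of each organoid group, so that its fitted changes, -7.35 ± 1.42 in iISC and -7.32 ± 1.42 in iFIPC organoids, rest mostly on values at background. Wnt9a, the neighbour of Wnt3a, changed by -6.87 ± 0.60 in iISC and by -5.38 ± 0.60 in iFIPC organoids. Wnt2 was at least 47.5-fold lower in iISC organoids (79.6-fold without MEF array 1 and 28.3-fold without MEF arrays 2 and 3) and changed by -4.62 ± 0.73 in iFIPC organoids. Wnt4, Wnt6, Wnt7b and Wnt10a were not called in either, with Wnt4 at -0.64 ± 1.14 in iISC and 1.98 ± 1.14 in iFIPC organoids.

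R-spondins were at background in the organoids. Rspo2 had -8.29, -7.54 and -7.92 in iISC and -8.48, -7.87 and -8.60 in iFIPC organoids, against 3.03 and 0.28 in MEFs. That is at least 218-fold lower in iISC organoids (adjusted p = 3.22e-08) and at least 296-fold lower in iFIPC organoids (adjusted p = 2.78e-08). The bounds were 84.0-fold and 114-fold without MEF array 1, and 567-fold and 769-fold without MEF arrays 2 and 3. Its second probe was above background on no array and gives no check. Rspo1 was at least 28.1-fold lower in iISC and at least 38.1-fold lower in iFIPC organoids, and Rspo3 at least 11.8-fold and at least 16.0-fold lower. For Rspo1 the bounds were 46.2-fold and 62.6-fold without MEF array 1, and 17.1-fold and 23.2-fold without MEF arrays 2 and 3. Rspo1, Rspo2 and Rspo3 all passed the filter through MEFs alone, which largely set their direction. Rspo4 was above background on no MEF array and was not tested here.

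In each comparison 6 secreted antagonists fell, of 7 tested in iISC and 8 in iFIPC organoids. In iISC organoids all 6 passed the filter through MEFs alone, so that their direction was largely set by it. In iFIPC organoids this holds for Frzb, Sfrp1 and Sfrp4. Sfrp1, a soluble relative of the Frizzleds that binds Wnt ligands, had -8.70, -7.97 and -8.34 in iISC and -8.93, -8.30 and -8.98 in iFIPC organoids, against 2.64 and 1.25 in MEFs. It was at least 268-fold lower in iISC organoids (adjusted p = 4.62e-07) and at least 363-fold lower in iFIPC organoids (adjusted p = 4.12e-07). Without MEF array 1 these bounds were 165-fold and 224-fold, and without MEF arrays 2 and 3 they were 433-fold and 587-fold. No sample of either organoid group was above background. The Sfrp1 levels of iHep cells, -0.98, -5.16 and -2.90, lay between these and the MEFs.

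Sfrp2 had -7.05, -7.95 and -8.33 in iISC organoids, none of them above background, against 1.16 and 0.16 in MEFs, and was at least 110-fold lower (adjusted p = 1.67e-07). In iFIPC organoids it was above background on all 3 arrays, at -6.36, -5.18 and -5.50, a change of -6.34 ± 0.66 (adjusted p = 3.1e-06). Dkk3, the divergent member of the Dickkopf family, had -8.22, -4.84 and -8.25 in iISC organoids, with 1 array above background, and -5.10, -3.19 and -6.41 in iFIPC organoids, against 3.36 and 2.53 in MEFs. Its change was -10.05 ± 1.18 in iISC (adjusted p = 6.78e-06) and -7.84 ± 1.18 in iFIPC organoids (adjusted p = 7.63e-05). Dkk2, above background on 1 of the 3 iISC arrays, changed by -8.41 ± 1.11 in iISC and by -7.79 ± 1.11 in iFIPC organoids. Frzb was at least 15.1-fold lower in iISC and at least 20.5-fold lower in iFIPC organoids, and Sfrp4 at least 11.3-fold and at least 15.2-fold lower. Against this direction, Sfrp5 was higher in iFIPC organoids (2.80 ± 0.60, adjusted p = 0.00134), a call lost after normexp (0.62, adjusted p = 0.0624). Sfrp5 passed the filter through iFIPC organoids alone. The summed level of the 15 fibroblast markers ranged from -3.67 to -3.52 in iISC organoids, from -2.48 to -0.52 in iFIPC organoids and from 6.41 to 6.47 in MEFs. The part of fibroblast content in these levels was not tested.

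Receptors changed in both directions. Fzd5 and Fzd9 were higher in organoids, and Fzd1, Fzd2, Fzd4 and Fzd8 were lower in both kinds. Fzd5, a Frizzled known to be needed for Paneth cell maturation, had -0.74, -0.06 and -0.19 in iISC and -0.52, -1.15 and -0.93 in iFIPC organoids, against -2.45 and -3.12 in MEFs. Its change was 2.46 ± 0.33 in iISC (adjusted p = 2.64e-05) and 1.91 ± 0.33 in iFIPC organoids (adjusted p = 0.000268), whereas a second probe for Fzd5 gave 0.12 and 0.13. Fzd9 changed by 2.66 ± 0.52 in iISC (adjusted p = 0.000541) and by 2.53 ± 0.52 in iFIPC organoids (adjusted p = 0.000962). Fzd2 had the largest fall, -4.68 ± 0.64 in iISC and -5.84 ± 0.64 in iFIPC organoids, and its second probe gave -4.92 and -6.07. Fzd3, above background on 1 of the 3 iISC arrays, was called in iISC organoids (-3.01 ± 0.98, adjusted p = 0.0152) and not in iFIPC organoids (-1.96 ± 0.98, adjusted p = 0.0986), and Fzd7 the other way round, with -0.90 ± 0.46 in iISC (adjusted p = 0.102) and -1.44 ± 0.46 in iFIPC organoids (adjusted p = 0.0157). The difference of Fzd7 between the 2 kinds of organoid was not called, and that of Fzd3 was not tested. In both comparisons Fzd3 passed the filter through MEFs alone. The probes of Fzd7 disagreed in size, since the second gave -4.48 in iISC and -4.97 in iFIPC organoids. Fzd10 was called in neither (0.04 and 0.33), but its second probe, above background on 10 arrays, gave -3.27 in iISC and 0.31 in iFIPC organoids. Neither coreceptor was called. Lrp5 changed by 0.48 ± 0.22 in iISC and 0.58 ± 0.22 in iFIPC organoids, and Lrp6 by -0.93 ± 0.23 and -0.95 ± 0.23, a size within the range by which the spike-in controls differed between the array sets.

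**Figure D3:**
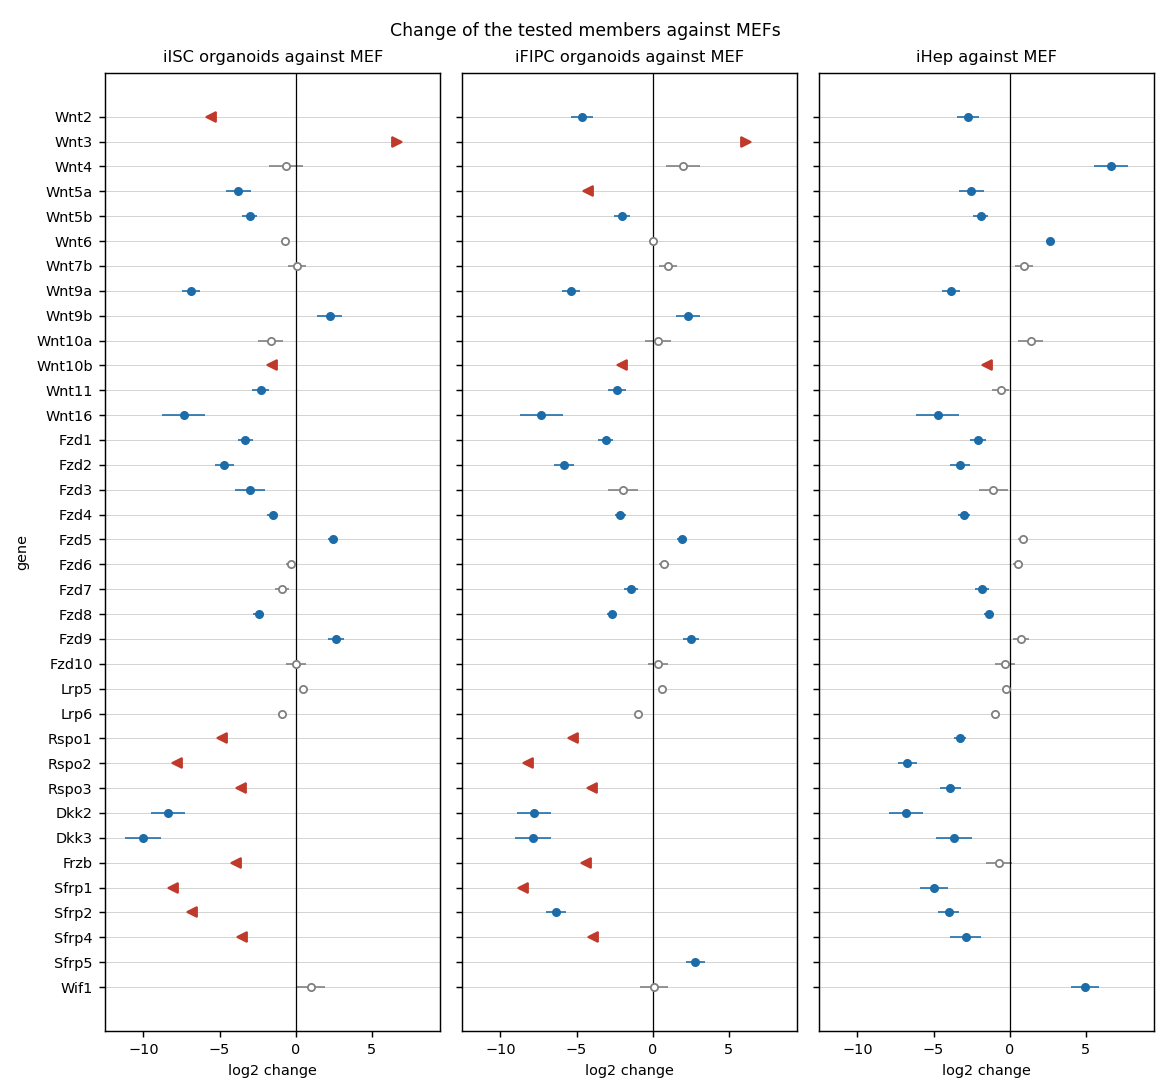
Log2 change against MEFs for every member tested, in iISC organoids, iFIPC organoids and iHep cells; blue points with SE bars are called, open points are not, and red triangles are lower bounds for genes above background on no array of one group. Wnt3 lies to the right in both kinds of organoid, Wnt4, Wnt6 and Wif1 in iHep cells, and R-spondins and most antagonists lie to the left in all 3.

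Other genes of the pathway, from a list of 55 on the array, moved in both directions. Of all genes tested against MEFs, 47.3% were called in iISC organoids, 42.1% in iFIPC organoids and 26.8% in iHep cells. In iISC organoids against MEFs, 16 were higher and 15 lower of 54 tested, with a median of 0.02, and in iFIPC organoids 15 were higher and 15 lower of 54, with a median of 0.04. Cdx1, an intestinal homeobox gene and known Wnt target, was at least 114-fold higher in iISC and at least 89.8-fold higher in iFIPC organoids. Sp5, another Wnt target, changed by 7.73 ± 1.58 in iISC and 8.79 ± 1.58 in iFIPC organoids, although MEF array 1 was above background and arrays 2 and 3 were not. Cthrc1, a secreted fibroblast product that can bind Frizzleds, was at least 1258-fold lower in iISC organoids and changed by -9.54 ± 0.98 in iFIPC organoids. In iHep cells against MEFs, 6 were higher and 13 lower of 50 tested (median -0.47), among them the planar polarity cadherin Celsr1 (4.84 ± 0.79), the Wnt target Ephb2 (-4.76 ± 0.32) and the secreted inhibitor Sostdc1, at least 5.63-fold lower.

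Among organoids, fewer members differed. iISC against crypt organoids asks whether induced organoids differ from native ones of the adult type. Of 23 tested members, 1 was called (4.35%, against 2.76% of all genes tested), and the median change was 0.09. Fzd1, a receptor of canonical Wnt ligands, had 0.20, -0.05 and -0.55 in iISC organoids, against -1.77, -3.80 and -3.27 in crypt organoids, with no overlap. The change was 2.81 ± 0.46 (adjusted p = 0.0135). No slide held both groups, and with slide as a term it was 3.51 with an adjusted p of 0.0692. In a fit of these groups alone the adjusted p was 0.0684, and the 1 member called there was another one, higher in iISC organoids. Without crypt sample 3 the change of Fzd1 was 2.65, with an adjusted p of 0.062.

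Wif1 and Wnt10a stood apart in the same samples but were not called. Both passed the filter through iISC organoids alone. Wif1 had -2.59, -3.02 and -2.85 in iISC organoids, against -3.90, -7.17 and -6.93 in crypt organoids (3.18 ± 0.80, adjusted p = 0.0599), with 1 crypt array above background. For Wnt10a the levels were -4.04, -4.06 and -3.08 in iISC organoids, against -6.56, -7.01 and -6.37 in crypt organoids (2.92 ± 0.80, adjusted p = 0.0778). Wnt2 was above background on no iISC and on all 3 crypt arrays, at -6.48, -7.13 and -6.24 in iISC organoids, against -5.99, -5.93 and -6.01 in crypt organoids, and was not called (adjusted p = 0.53). Wnt3 was not called either (0.80 ± 0.41, adjusted p = 0.306), and the groups overlapped. Of 49 tested genes of the pathway list, 3 rose and none fell, against 2.76% called of all genes tested. The 3 were the nuclear effector Lef1 (3.33 ± 0.70), the Wnt deacylase Notum (2.44 ± 0.57) and the planar polarity receptor Ptk7 (1.16 ± 0.18).

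iFIPC against FI organoids puts the same question for the fetal type. Ligands and antagonists that were called were higher in iFIPC organoids, and Frizzleds that were called were lower. Fzd10 was not called (-0.48), but its second, dimmer probe, above background on 10 arrays, gave 2.37. That probe gave 2.39 in iISC against crypt, -3.60 in crypt against FI and -3.58 in iISC against iFIPC organoids. The probe used gave 0.11, -0.88 and -0.29 there. Of 28 tested members, 6 were called, 4 higher and 2 lower (21.4%, against 10.0% of all genes tested), and the median change was -0.13, against -0.10 over all genes. Wnt4 had -2.86, -1.36 and -0.66 in iFIPC organoids, against -5.99, -5.90 and -5.39 in FI organoids, with a change of 4.14 ± 0.94 (adjusted p = 0.0142). Every iFIPC sample lay above every FI sample. Wnt9a, known from joint development, had -5.48, -4.32 and -3.29 in iFIPC organoids, against -6.18, -6.36 and -7.55 in FI organoids, again with no overlap (2.33 ± 0.58, adjusted p = 0.0207).

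Sfrp2 was above background on all 3 iFIPC arrays, at -6.36, -5.18 and -5.50, and on none of the FI arrays, at -7.07, -9.09 and -7.84. The iFIPC level was at least 2.42-fold higher, with an adjusted p of 0.0158. Sfrp2 and Wnt9a passed the filter through iFIPC organoids alone, which largely set their direction. Sfrp5 had -2.93, -5.41 and -3.0 in iFIPC organoids, against -5.74, -5.79 and -5.11 in FI organoids. Its groups overlapped, since iFIPC sample 2 lay within the FI range (1.77 ± 0.55, adjusted p = 0.0439). Fzd7 fell, at -1.38, -1.29 and -0.78 in iFIPC organoids, against 0.54, 0.31 and 0.16 in FI organoids (-1.49 ± 0.29, adjusted p = 0.00838). The second probe for Fzd7 gave -0.93. Fzd4, the receptor that also binds Norrin, had -3.10, -2.38 and -2.63 in iFIPC organoids, against -2.04, -1.49 and -1.07 in FI organoids (-1.17 ± 0.33, adjusted p = 0.0304).

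Rspo4 was above background on all FI arrays and on no iFIPC array, at -8.01, -8.34 and -7.45 in iFIPC organoids, against -6.16, -5.53 and -5.92 in FI organoids. By its bound the iFIPC level was lower by at least 1.61-fold, and Rspo4 was not called (adjusted p = 0.0576). The FI arrays were all on a slide that held no iFIPC array. A fit with slide as a term joins the slide of the FI arrays to the others through crypt sample 1 alone. iFIPC sample 2, which lay within the FI range for Sfrp5, drops out of its changes. With slide as a term Rspo4 had an adjusted p of 0.904. In that fit Sfrp5 was the member called (2.40, adjusted p = 0.0328), and Wnt4 had 3.97 (adjusted p = 0.381), Wnt9a 1.24 (adjusted p = 0.639), Fzd7 -1.02 (adjusted p = 0.445) and Fzd4 -2.23 (adjusted p = 0.108), and Sfrp2 had an adjusted p of 0.556. Slide as a random block kept the calls of all but Sfrp5 (1.74, adjusted p = 0.0556).

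Some of these calls rested on single libraries. Without FI sample 2, Wnt4 (4.06, adjusted p = 0.0518), Wnt9a (2.50, adjusted p = 0.0518), Sfrp2 (adjusted p = 0.0537), Sfrp5 (1.64, adjusted p = 0.131) and Fzd4 (-1.15, adjusted p = 0.0905) were not called. Leaving out iFIPC sample 2, iFIPC sample 3 or FI sample 3 took Wnt9a to adjusted p-values of 0.0565, 0.063 and 0.0599. Sfrp2 was also lost without iFIPC sample 2 (adjusted p = 0.0543), and Sfrp5 without any of the samples other than iFIPC sample 2, with adjusted p-values of 0.0572 to 0.136. Fzd4 was lost without iFIPC sample 1, iFIPC sample 3 or FI sample 3 as well, with adjusted p-values of 0.067 to 0.0905. Fzd7 remained called whichever sample was left out.

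Fibroblast markers also differed between iFIPC and FI organoids. Of 8 tested fibroblast markers, 4 rose in iFIPC organoids and none fell, namely Dcn (6.39 ± 0.49), Twist1 (6.49 ± 0.66), Sparc (2.59 ± 0.71) and Vim (2.06 ± 0.46). The summed level of the list ranged from -2.48 to -0.52 in iFIPC organoids, against -4.23 to -3.07 in FI organoids. Wnt9a and Sfrp2, higher in iFIPC than in FI organoids, were both higher in MEFs than in organoids. Fzd4 and Fzd7 were also higher in MEFs than in iFIPC organoids, but were lower in iFIPC than in FI organoids. Sfrp5 was lower in MEFs than in iFIPC organoids, and Wnt4 was not called between them. The part of fibroblast content in these levels was not tested. Of 50 tested genes of the pathway list, 1 rose and 4 fell, against 10.0% called of all genes tested. Notum rose (2.23 ± 0.57), and among the 4 were the cell-surface proteoglycan Gpc3 (-4.53 ± 0.76) and the Wnt target Tnfrsf19 (-3.62 ± 0.98).

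Crypt against FI organoids compares the native adult and fetal types. The 5 members called were lower in crypt organoids, and Fzd5 was below the minimum change at 0.91 ± 0.22 (adjusted p = 0.0266). Fzd5 was called higher with median scaling (adjusted p = 0.0192), without crypt sample 1 (1.01, adjusted p = 0.0245) and without FI sample 2 (1.03, adjusted p = 0.0444). Of 26 tested members, 5 were called, all lower (19.2%, against 8.13% of all genes tested), and the median change was -0.40, against -0.01 over all genes. Dkk2 was above background on no crypt array, at -9.11, -8.72 and -8.96, and on all FI arrays, at -4.81, -5.38 and -6.28. It was at least 2.19-fold lower in crypt organoids (adjusted p = 0.0109). Wnt10a had -6.56, -7.01 and -6.37 in crypt organoids, against -3.33, -3.28 and -3.57 in FI organoids (-3.25 ± 0.80, adjusted p = 0.0264). The groups did not overlap for either gene. Dkk2 and Wnt10a, and Wif1 below, passed the filter through FI organoids alone, which largely set their direction.

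Wif1 had -3.90, -7.17 and -6.93 in crypt organoids, against -1.90, -2.78 and -3.62 in FI organoids (-3.23 ± 0.80, adjusted p = 0.0271). Fzd1 had -1.77, -3.80 and -3.27 in crypt organoids, against -0.08, -1.05 and -0.36 in FI organoids (-2.45 ± 0.46, adjusted p = 0.0086). For both genes the crypt sample nearest to the FI organoids was sample 1, the one crypt array on the slide of the FI arrays. Fzd7 fell less, at -0.54, -0.60 and -1.30 in crypt organoids, against 0.54, 0.31 and 0.16 in FI organoids (-1.15 ± 0.29, adjusted p = 0.0291). Its second probe gave -0.51, below the minimum change. The values of crypt organoids for Fzd1, Wif1 and Wnt10a are those set against iISC organoids above, so the 2 comparisons share them.

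Within the slide of the FI arrays and crypt sample 1, that 1 crypt sample is assumed to vary like the FI samples, whose spread gives the p-values. Wnt10a passed the threshold there (-3.16, adjusted p = 0.0263) and Dkk2 did not (adjusted p = 0.107), and Wif1 had -1.14 (adjusted p = 0.605), Fzd1 -1.27 (adjusted p = 0.333) and Fzd7 -0.88 (adjusted p = 0.223). With slide as a term no member was called, but crypt samples 2 and 3 drop out of its changes, which are those within that slide. It is therefore no separate check. Wif1 and Wnt10a each lost their call without crypt sample 2, crypt sample 3, FI sample 1 or FI sample 2, with adjusted p-values of 0.0708 to 0.11, and Fzd7 did so too, with 0.0656 to 0.109. With a replicate block Fzd7 was lost (adjusted p = 0.0548) and Dkk3 was called (-3.66, adjusted p = 0.0312). Dkk2 and Fzd1 remained called whichever sample was left out. Of 50 tested genes of the pathway list, 6 fell and none rose, against 8.13% called of all genes tested. Gpc3 (-3.81 ± 0.76), the planar polarity gene Prickle1 (-3.33 ± 0.52) and Lef1 (-3.21 ± 0.70) changed most.

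**Figure D4:**
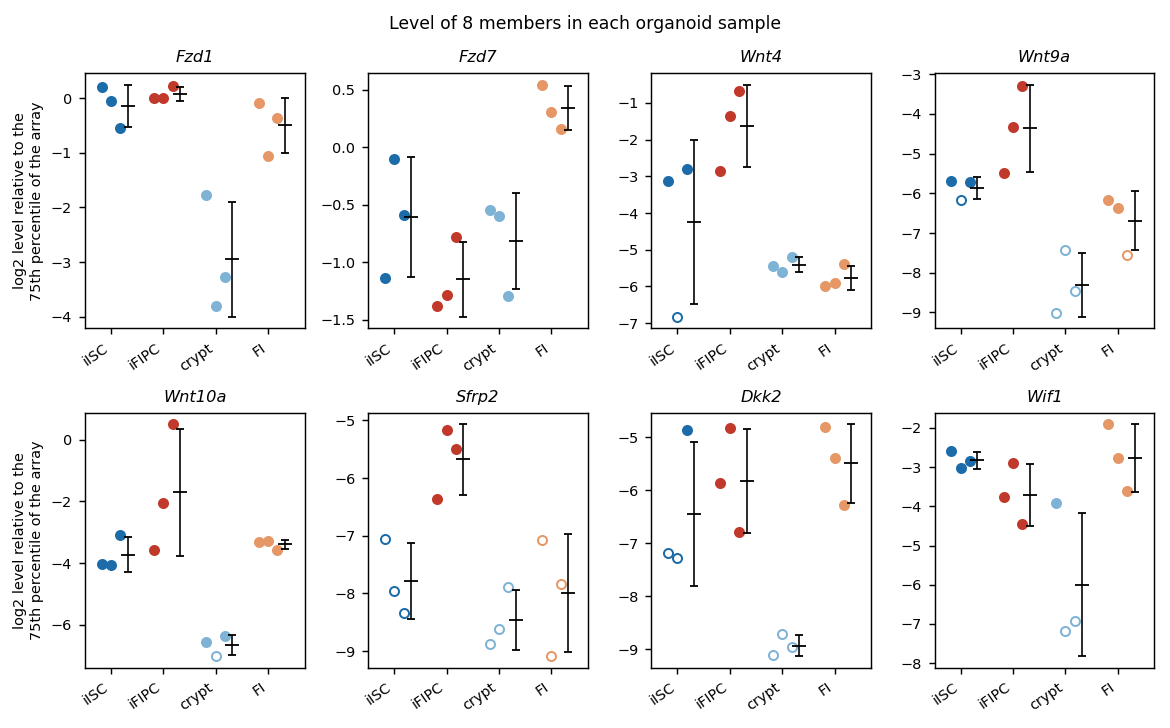
Levels of Fzd1, Fzd7, Wnt4, Wnt9a, Wnt10a, Sfrp2, Dkk2 and Wif1 (log2 relative to the 75th percentile of the array) in the 3 samples of each organoid group, with filled points above background, open points not above it, and bars at the mean with the SD (n = 3). By group mean, Fzd1, Wnt10a, Dkk2 and Wif1 are lowest in crypt organoids, Wnt4, Wnt9a and Sfrp2 are highest in iFIPC organoids, and Fzd7 is highest in FI organoids.

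iISC against iFIPC organoids compares the induced adult and fetal types. Of 26 tested members, 3 were called, all lower in iISC organoids (11.5%, against 7.34% of all genes tested), and the median change was -0.25, against 0.05 over all genes. Sfrp2 had -7.05, -7.95 and -8.33 in iISC organoids, against -6.36, -5.18 and -5.50 in iFIPC organoids, and was at least 1.36-fold lower (adjusted p = 0.0342). Fzd6, a Frizzled of planar polarity, had -0.51, -1.51 and -0.94 in iISC organoids, against 0.50, -0.29 and -0.09 in iFIPC organoids (-1.03 ± 0.27, adjusted p = 0.0343). Wnt5b had -3.87, -4.66 and -4.27 in iISC organoids, against -2.83, -3.78 and -3.13 in iFIPC organoids (-1.02 ± 0.28, adjusted p = 0.0438). The groups did not overlap for Fzd6 and Wnt5b. For Sfrp2 the order of the samples is not settled, since the lowest level above background on 2 of the iISC arrays lies above iFIPC sample 1. Sfrp2 passed the filter through iFIPC organoids alone, which largely set its direction.

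All 3 calls were near the threshold. None remained in a fit of these groups alone or with slide as a term. The fit with slide as a term sets iISC organoids against iFIPC sample 2 alone. The fit within the slide that held the 3 iISC arrays and iFIPC sample 2 does the same, and none remained there. Within that slide, where the 1 iFIPC sample is assumed to vary like the iISC samples, the changes were -0.71 for Fzd6 (adjusted p = 0.642) and -0.48 for Wnt5b (adjusted p = 0.7), and Sfrp2 had an adjusted p of 0.242. None remained without iISC sample 2, iISC sample 3 or iFIPC sample 3 either, Sfrp2 was lost without iFIPC sample 2 (adjusted p = 0.0977) and with a replicate block (adjusted p = 0.0643), and Fzd6 (-0.80, adjusted p = 0.104) and Wnt5b (-0.81, adjusted p = 0.134) without iFIPC sample 1. Wnt2 was above background on no iISC and on all iFIPC arrays, at -6.48, -7.13 and -6.24 in iISC organoids, against -6.35, -3.92 and -5.20 in iFIPC organoids, and was not called (adjusted p = 0.107), although without iFIPC sample 1 it was (adjusted p = 0.03). Of 9 tested fibroblast markers, 4 were lower and 1 was higher in iISC organoids. Of 49 tested genes of the pathway list, limma called 0, against 7.34% of all genes tested, and 11 had an unadjusted p under 0.05.

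The last comparison asks whether the difference between adult and fetal type was the same in induced as in native organoids, as iISC minus iFIPC less crypt minus FI. Of 28 tested members, 1 was called (3.57%, against 4.81% of all genes tested). The change of Fzd7 was 0.54 ± 0.29 in iISC against iFIPC organoids, and -1.15 ± 0.29 in crypt against FI organoids. The difference of 1.69 ± 0.41 had an adjusted p of 0.0416. Its call was lost without iISC sample 2 or 3, iFIPC sample 1 or 2, crypt sample 2 or 3, or any FI sample, with changes of 1.44 to 1.80 and adjusted p-values of 0.051 to 0.0937, with a replicate block (adjusted p = 0.0745) and with slide as a term (1.56, adjusted p = 0.371). The second Fzd7 probe gave 1.00. Wif1 (4.12 ± 1.14, adjusted p = 0.058) and Fzd1 (2.24 ± 0.65, adjusted p = 0.067) had larger differences that were not called. From the pathway list, Gpc3 (5.56 ± 1.08), Ptk7 (1.74 ± 0.26) and the Wnt target Myc (1.46 ± 0.28) were called among 50 tested, against 4.81% of all genes.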

How the data were processed

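The series holds 18 1-colour Agilent mouse arrays. Per the file headers, the deposited intensity values are Feature Extraction's background-subtracted processed signal on a linear scale, from version 10.7.1.1 for the 12 organoid arrays and 9.5.1.1 for the 6 MEF and iHep arrays, whereas the submitters' processing notes name 9.5.1.1. The authors also deposited a matrix of intensity values that follow the processed signal in rank and have nearly equal medians on all arrays (59.06 to 59.17); it served as an alternative. Flags of the deposited files gave detection.

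The log2 of the processed signal was taken and each array's 75th percentile over gene probes subtracted. Of 41174 gene probes, 65 without a value on some array were dropped. MEF arrays 2 and 3 differed by a robust SD of 0.073, below the 0.0894 to 0.0914 expected from the spots' own noise, and were averaged, leaving 17 samples. limma 3.58.1 in R 4.3.3 fitted comparisons with MEFs over all 17 samples and the others over the 12 organoid samples, with two-sided tests and Benjamini-Hochberg adjustment over all genes tested. Each group's mean, without a replicate block, was the design. The number of arrays limits the precision.

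In each comparison the members described in full are the 4 with the largest change among those called, those called in the difference between induced and native organoids, and those above background on all arrays of 1 organoid group and on none of the other. Further called members were singled out after their values were seen. Up to 3 called genes of the pathway list were named per comparison by size of change. Members and lists were chosen with earlier results of these data known. Alternatives were the background correction, the scaling, the authors' matrix, the filter, the probe rule, the samples fitted, slide, replicate block, threshold and leaving out each replicate. Tested on simulated data, the iHep and MEF comparison recovered 68% of genes changed by 1.5 and 97% of those changed by 3 log2 units (17280 genes), and the iISC and crypt comparison 85% and 97% (16473 genes).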

Additional observations from a re-analysis of the deposited data

Results flagged for a closer look

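For Fzd7, the difference between adult-type and fetal-type organoids differed between induced and native cultures at the threshold, by 1.69 log2 units (SE 0.41, limma adjusted p = 0.0416), from 0.54 in iISC against iFIPC organoids and -1.15 in crypt against FI organoids. Fzd7 levels in FI organoids lay above those of every other organoid sample. Leaving out 1 sample at a time gave 1.44 to 1.96, with adjusted p-values of 0.026 to 0.0937, and the call was lost in 9 of these 12 fits. It was also lost with a replicate block (adjusted p = 0.0745), with slide as a term (adjusted p = 0.371), with median scaling and with no filter, and the second Fzd7 probe gave 1.00.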

How the results depend on the processing

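In the comparisons with MEFs, the members called were 25 for iISC organoids, 26 for iFIPC organoids and 22 for iHep cells. Requiring a signal above background in every group left 8 and 14 in iISC and iFIPC organoids, a filter that removes genes at background in 1 group, and iHep cells within slide A gave 10. Leaving out 1 sample gave 23 to 27, 25 to 28 and 17 to 21. Slide as a fixed term could not be fitted for the organoids against MEFs, since no slide joins the array sets; slide as a random block, chosen after seeing the data, gave 25 and 26. Median scaling moved the share of higher calls over all genes to 65.0% for iISC and 60.9% for iFIPC organoids, from 47.5% and 46.6%, to 50.3% from 34.0% for crypt against FI, and to 53.2% from 41.4% for iISC against iFIPC organoids.

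Among organoids the counts were less stable. For iISC against crypt (1 called), no filter gave 2, slide as a term 0 and leaving out a sample 0 to 2. The fit of these groups alone gave 1, which was not Fzd1. For iFIPC against FI (6), normexp gave 2, slide as a term 1 and leaving out a sample 1 to 6. For crypt against FI (5), normexp gave 3, the filter in every group 2, slide as a term 0, slide C alone 1 and leaving out a sample 2 to 7. For iISC against iFIPC (3), normexp, the fit of these groups alone, slide as a term and slide E alone gave 0 each, quantile normalization, median scaling and the authors' matrix 1 each, and leaving out a sample 0 to 5. For the difference between induced and native organoids (1), normexp gave 2, median scaling, no filter, slide as a term and the replicate block 0 each, and leaving out a sample 0 to 3. Without iFIPC sample 1, and without iFIPC sample 2, the 1 member called was not Fzd7 and its difference was negative. Slide as a term also cut the calls over all genes, to 29 of 455 for iISC against crypt, 136 of 1758 for iFIPC against FI, 344 of 1410 for crypt against FI, 319 of 1206 for iISC against iFIPC and 67 of 853 for the difference. With slide as a term, crypt against FI organoids rests on crypt sample 1, and iISC against iFIPC organoids on iFIPC sample 2, as within slides C and E. In that fit iFIPC against FI organoids is joined through crypt sample 1 alone. The fitted Rspo4 change there, read from iFIPC arrays at background, was 0.35 with slide as a term. Of the other alternative values for single members, 565 kept side and direction, 118 lost the call and 3 gained it; the causes were not tested.

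With a replicate block, 23, 25 and 27 members were called in iHep cells, iISC and iFIPC organoids against MEFs, and 1, 6, 5 and 2 in the 4 organoid comparisons in the order above. The block took the call from Fzd7 and gave it to Dkk3 in crypt against FI, took it from Sfrp2 in iISC against iFIPC, and gave it to Lrp6 in iHep cells and to Fzd3 in iFIPC organoids against MEFs. Samples with the same number did not all deviate together in any comparison (correlations of 0.22, -0.42 and 0.34 for crypt and FI organoids), so the numbers were not taken as pairs. The bounds without each sample were also chosen after seeing the data. Signals near background limit the bounds, and a level of a gene on no array above background has no order.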
